A study of Oryza sativa Japonica Group with 30 samples.

Results

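The drought response of wild-type leaves was read from 6 RNA-Seq libraries of rice variety Zhonghua 11 (ZH11), 3 from plants under drought (ZH11-D) and 3 from plants under normal watering (ZH11-N). They are 6 of the 12 RNA-Seq libraries and of the 30 samples of the series, and were chosen by their labels, with no measured value in the choice. The other 6 RNA-Seq libraries are from OE-19, 1 transgenic line of ZH11 that carries the coding sequence of the stress-responsive NAC factor SNAC1 under a maize ubiquitin promoter. Of these, 3 are from drought and 3 from normal watering. They entered only the filter on mean FPKM, the fit's estimate of the spread and 1 test of the difference between the genotypes. ZH11 seedlings had reached the 4-leaf stage in pots of sand and paddy soil, where 10 ZH11 plants stood beside 10 transgenic ones. For ZH11-D, watering was then withheld for 10 to 15 days, up to the point at which leaves had curled and yellowed, and RNA was extracted from leaves. The study itself calls the drought stress of its RNA-Seq samples moderate. ZH11-N plants were watered normally, and the sources used here do not give the age or the time of day at which the leaves of either group were taken. The sources call the 3 libraries of a group independent replicates without saying how plants were assigned to them, and p-values measure the spread between these libraries.

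Drying soil raises the hormone abscisic acid (ABA) in leaves. ABA bound to its receptors inhibits type 2C protein phosphatases, which frees SnRK2 kinases to activate bZIP transcription factors and the channels that close stomata. ABA-responsive bZIP factors, NAC factors, DREB factors and homeobox factors then act on genes for protective proteins such as dehydrins, while long drought stops leaf growth, lowers photosynthesis and brings on senescence.

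Values are FPKM as deposited, fragments scaled by the length of the transcript and by the number of fragments mapped in the library. Differences are log2FC values, ZH11-D minus ZH11-N, on log2(FPKM + 0.5), which understates the change of a gene near 0. A gene is called here when its absolute log2FC was 1 or more and its limma adjusted p, corrected over all 19979 features with a mean of at least 1 FPKM, was under 0.05. "Rose" and "fell" are used only of called genes. Of all features tested, 13.8% were called higher and 18.2% lower in ZH11-D, in 59.9% the 3 libraries of one group lay wholly on one side of the other 3, and the median log2FC was 0.06. A share of called members near those percentages is therefore not a result about a gene group. Gene names and products were those that the study pairs with an identifier, mostly in its list of known genes near SNAC1-bound DNA, so the groups below hold mostly SNAC1-bound members of each pathway. OsNAC10 and OsRCI2-5 come from the study's text instead, where they stand with OsCIPK15 and OMTN6 among genes picked by their expression in these libraries, so the directions of these 4 are not independent evidence. Of the 300 genes in the 29 lists 288 were tested, 8 lay below the filter (OSVP1, ENAC1, OsMYB30, OsUsp1, OsWRKY28, OsCSLD1, WOX11 and OsMADS6), and 4 were not analysed here (OsPSY3, RPE, CYP90D2 and OsGSTU17). The 2 digits after "Os" in an identifier give the chromosome. In whole leaves, fewer cells of a type and less of an RNA per cell cannot be told apart.

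One ZH11-N library stood apart from its group. In 627 features ZH11-N replicate 1 lay more than 2 log2 units from both other ZH11-N libraries, which were within 1 log2 unit of each other, while the same count was 27 and 36 for those 2 libraries and 10 to 142 for the ZH11-D libraries. Its Pearson r with the other ZH11-N libraries across tested features was 0.874 and 0.889, against 0.973 between those 2, and 0.959 to 0.987 within ZH11-D. Light- and clock-related genes were among the features, all picked after their values were seen. OsFKF1, a blue-light receptor of the photoperiod pathway, had 2.97, 4.23 and 4.45 FPKM in ZH11-D, against 58.3, 0.976 and 0.609 FPKM in ZH11-N, and OsPRR1, a clock component, had 4.71, 4.71 and 5.84 FPKM in ZH11-D, against 34.6, 3.18 and 4.33 FPKM in ZH11-N. OsSIG5, a sigma factor of the plastid RNA polymerase, went the other way with 119.99, 148 and 131 FPKM in ZH11-D, against 8.91, 209.7 and 233 FPKM in ZH11-N. The disease-resistance gene OsDR8 had 1503, 1525 and 1730.2 FPKM in ZH11-D, against 13199, 118 and 118 FPKM in ZH11-N. In each of these 4 genes the ZH11-D libraries lay between replicate 1 and the other ZH11-N libraries. Results that turn on replicate 1 are given with and without it, and without it 14.8% of the features were called higher and 20.3% lower.

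**Figure D1:**
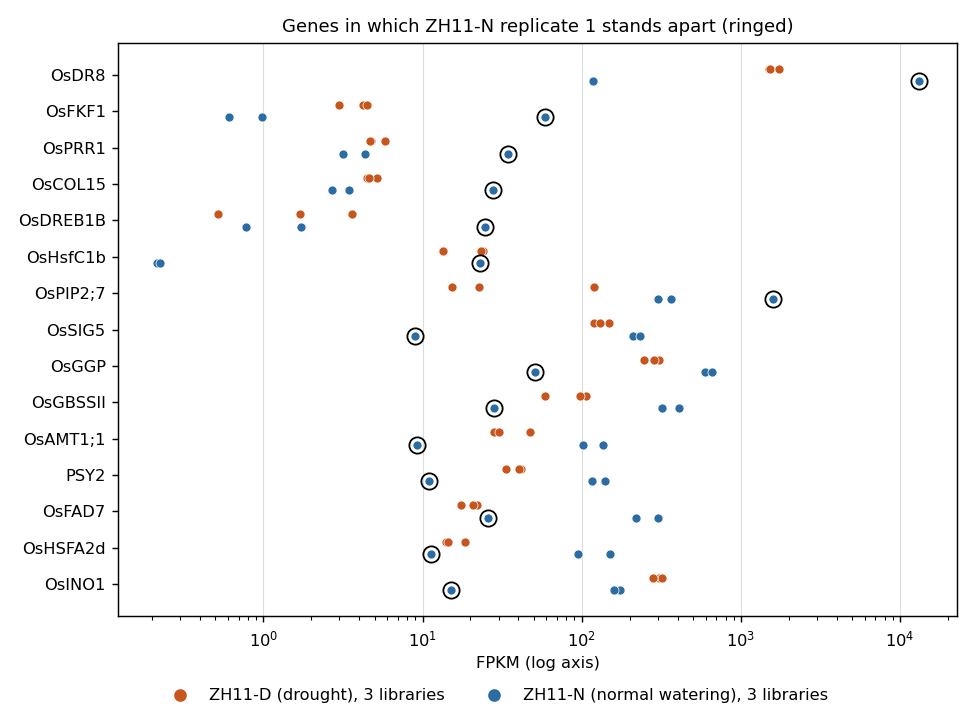
FPKM on a log axis in the 3 ZH11-D libraries (orange, upper row of each gene) and the 3 ZH11-N libraries (blue, lower row) for 15 genes chosen after their values were seen. The ringed ZH11-N replicate 1 lies far from the other ZH11-N libraries in each gene, for OsFKF1 at 58.3 FPKM against 0.976 and 0.609 FPKM.

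Within ZH11-D, replicate 1 was the least changed library. It was the lowest of the 3 in 80.0% of the features called higher and the highest of the 3 in 83.0% of those called lower. All 6 libraries carried leaf transcripts. OsCA1, a carbonic anhydrase of leaves, had at least 734 FPKM everywhere, and the root, flower and cell wall genes WOX11, OsMADS6 and OsCSLD1 were below 1 FPKM in every ZH11 library. OsMADS22, OsMADS14 and qSH1, the other 3 markers of tissues other than leaf, were expressed in both groups at means of 55.7, 5.004 and 5.89 FPKM in ZH11-D, against 42.1, 8.39 and 9.66 FPKM in ZH11-N, and none of them was called by limma, with an unadjusted p under 0.05 for 1 higher and 1 lower. Of the 5 leaf markers OsCA1, OsCHLH and OsPORA fell, and OsGLK1 and GLO1 were not called. Ubiquitin (LOC_Os03g13170), a reference gene of quantitative PCR, had 209.5, 197 and 218 FPKM in ZH11-D, against 201, 162 and 156 FPKM in ZH11-N and was not called.

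The strongest rises reached into the most abundant transcripts of the leaf. 174 features rose by at least 5 log2 units, which is 32-fold on the log2(FPKM + 0.5) scale, and together they made up 10.8%, 18.03% and 17.7% of the summed FPKM in the ZH11-D libraries, against 0.146%, 0.228% and 0.145% in the ZH11-N libraries. The falls of the same size, in 105 features, were fewer. The largest gain in the share of summed FPKM was that of RAMY (LOC_Os01g15270), named for a zinc finger protein that binds an alpha-amylase promoter. RAMY had 14557, 22977 and 22770.2 FPKM in ZH11-D, against 458, 659.7 and 572 FPKM in ZH11-N (log2FC 5.14, standard error 0.34, limma adjusted p = 2.24e-06). It was 2.36% ± 0.472 of the summed FPKM in ZH11-D and 0.0665% ± 0.0116 in ZH11-N (SD, n = 3 each), and ranked 2 by mean FPKM in ZH11-D and 148 in ZH11-N.

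Most of the largest changes belong to features that the sources used here do not pair with a name, among them all 15 of the largest rises and 14 of the 15 largest falls, and 2 of each are given by identifier. LOC_Os11g26790 had 7367, 16781 and 15725 FPKM in ZH11-D, against 5.28, 4.57 and 13.01 FPKM in ZH11-N (log2FC 10.73, standard error 0.43, limma adjusted p = 1.06e-07), and went to rank 3 in ZH11-D, against rank 11233 in ZH11-N. LOC_Os05g46480 had 3586, 8390.3 and 6315 FPKM in ZH11-D, against 2.76, 2.14 and 6.51 FPKM in ZH11-N (log2FC 10.52). For both, the lowest ZH11-D library was far above the highest ZH11-N library, 566-fold for LOC_Os11g26790 and 551-fold for LOC_Os05g46480. On the other side, LOC_Os10g05950 was listed at 0 in ZH11-D replicate 2 and had 0.267 and 0.318 FPKM in replicates 1 and 3, against 466, 749 and 435 FPKM in ZH11-N (log2FC -9.62, limma adjusted p = 4.88e-08). LOC_Os08g35760 had 42.8, 3.92 and 3.76 FPKM in ZH11-D, against 1530.1, 4090.3 and 3540.1 FPKM in ZH11-N (log2FC -8.23), with replicate 1 again the ZH11-D library nearest to ZH11-N.

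Among the 544 tested features with a name or product, 157 were called higher and 96 lower, beside 13.8% and 18.2% of all features. The named features include SNAC1 target genes that the study chose for drought responses in these same libraries. These counts are therefore not independent evidence. For the 20 with the largest rise the log2FC ran between 4.399 and 7.903, and 14 of these 20 come from the study's list of SNAC1 target genes, which was chosen for drought responses in these same libraries, so their directions are not independent evidence. At the head stood LOC_Os03g16920, a DnaK family protein and so of the Hsp70 type of chaperones, with 319, 499 and 523 FPKM in ZH11-D, against 0.656, 1.79 and 1.802 FPKM in ZH11-N (log2FC 7.903, standard error 0.45, limma adjusted p = 1.11e-06). LOC_Os03g14050, a thaumatin-like protein, had 564, 884 and 930.1 FPKM in ZH11-D, against 10.8, 17.5 and 9.06 FPKM in ZH11-N (log2FC 5.96). LOC_Os02g51930, annotated as a cytokinin-O-glucosyltransferase and so of the enzymes that store cytokinin as a glucoside, had 65.8, 142 and 81.5 FPKM in ZH11-D, against 1.64, 0.504 and 0.736 FPKM in ZH11-N (log2FC 6.05). The lowest ZH11-D library was 177-fold above the highest ZH11-N library for the DnaK gene, 32.2-fold for the thaumatin-like gene and 39.99-fold for the glucosyltransferase gene. LOC_Os01g49710, a glutathione S-transferase, rose by 5.19, LOC_Os04g33820, an F-box protein, by 5.098, the RING protein OsRING-1 by 4.76 and LOC_Os01g64360, a MYB family factor, by 4.57 on the log2 scale. OsHOX24, OsRCI2-5, OsPP2C51, ZFP182, OsSRO1c, OsANN1, ZFP15 and OsCV are among the rest and are described with their groups. LOC_Os06g05420, an expressed protein of no stated function, rose by 6.31, LOC_Os03g60260, annotated by its likeness to ANT1 of Arabidopsis, by 4.65, LOC_Os02g41840, with a domain of unknown function, by 4.61 and LOC_Os07g44410, a WD40-like repeat protein, by 4.399.

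The 20 largest falls among named features ran between -6.62 and -3.08, and again 14 of them come from the SNAC1 target list. OsEXPB3 (LOC_Os10g40720), a beta-expansin that loosens cell walls during growth, had 5.44, 0.343 and 0.383 FPKM in ZH11-D, against 97.2, 289 and 149 FPKM in ZH11-N (log2FC -6.62, standard error 0.88, limma adjusted p = 0.000159). LOC_Os04g46830, of the protease inhibitor, seed storage and lipid transfer protein family, had 4.07, 0.3704 and 0.209 FPKM in ZH11-D, against 47.9, 192 and 151 FPKM in ZH11-N (log2FC -6.31). LOC_Os06g04870, a homeobox-leucine zipper protein, had 0.906, 0.394 and 0.468 FPKM in ZH11-D, against 24.2, 71.2 and 49.2 FPKM in ZH11-N (log2FC -5.38). All 3 stood at or below 5.44 FPKM in every ZH11-D library and at or above 24.2 FPKM in every ZH11-N library. LOC_Os04g54240, a wound-induced protein, fell to 0.49997, 0.403 and 0.359 FPKM in ZH11-D, against 11.3, 45.03 and 28.5 FPKM in ZH11-N. LOC_Os02g43660, a plastocyanin-like protein, had a log2FC of -4.32, LOC_Os06g01620, a Scarecrow-like factor, one of -3.54, LOC_Os02g54640, a glutamate receptor, one of -3.29, and the phosphate-related MYB factor OsMYB2P-1 one of -3.76. The others that belong to no list described below were LOC_Os05g28780, a glycine- and cysteine-rich protein (log2FC -3.74), LOC_Os02g01140, a GDSL-like lipase (log2FC -3.59), LOC_Os02g54830, a RING finger protein (log2FC -3.47), LOC_Os01g60330, an inactive receptor kinase (log2FC -3.36), LOC_Os07g02540, an acyltransferase (log2FC -3.29), and LOC_Os03g47730, a homeobox protein (log2FC -3.15).

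**Figure D2:**
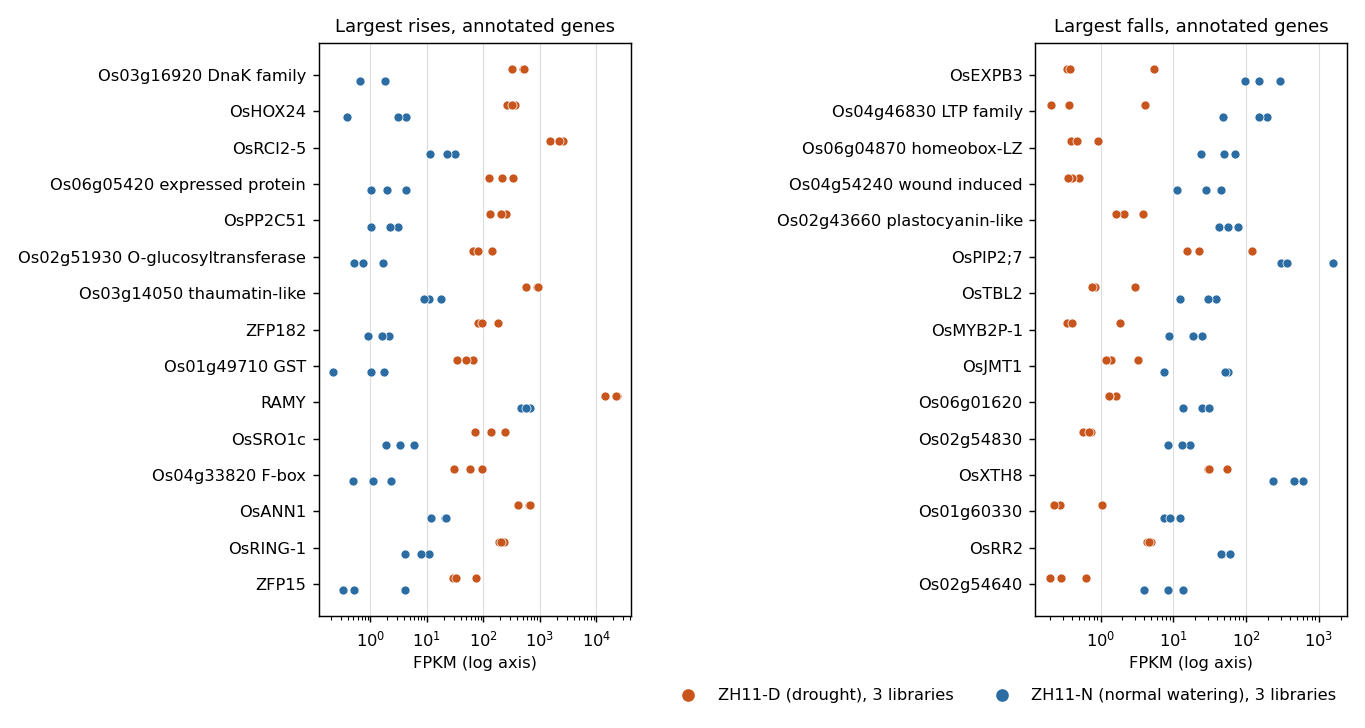
FPKM on a log axis in the ZH11-D libraries (orange, upper row) and the ZH11-N libraries (blue, lower row) for the 15 largest rises and 15 largest falls among features with a name or product and with no value of 0. In the left panel every orange point lies to the right of the blue ones, with RAMY at 14557 FPKM or more in ZH11-D, and in the right panel every orange point lies to the left.

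Of 7 tested genes for ABA synthesis and breakdown, 3 rose and 1 fell (median log2FC -0.14, against 0.06 over all features), and OsPSY3 was not analysed here. OsNCED3, the dioxygenase that cleaves carotenoids in the committed step to ABA, had 21.8, 27.6 and 23.5 FPKM in ZH11-D, against 3.14, 7.36 and 6.27 FPKM in ZH11-N (log2FC 2.09, standard error 0.35, limma adjusted p = 0.000606). DSM2, a beta-carotene hydroxylase that supplies its precursors, had 45.9, 47.7 and 43.04 FPKM in ZH11-D, against 11.3, 10.4 and 11.1 FPKM in ZH11-N (log2FC 2.01, standard error 0.15, limma adjusted p = 5.13e-06). The 3 libraries of each group were close together for DSM2 and far apart between the groups. The breakdown side was split, since OsABA8ox1, an ABA hydroxylase, rose by 1.39 on the log2 scale while OsABA8ox3, of the same family, had 22.2, 16.2 and 16.2 FPKM in ZH11-D, against 24.2, 38.6 and 53.7 FPKM in ZH11-N and was not called (log2FC -1.02, limma adjusted p = 0.0589). Without ZH11-N replicate 1 OsABA8ox3 was called lower (log2FC -1.32, limma adjusted p = 0.025). OSZEP1, the zeaxanthin epoxidase of the same route, fell to 98.95, 115 and 86.1 FPKM in ZH11-D, against 160.5, 243 and 365 FPKM in ZH11-N (log2FC -1.28), and lost its call without ZH11-N replicate 3 (log2FC -0.99, limma adjusted p = 0.0519). For PSY2, a phytoene synthase at the entry of the carotenoid route, ZH11-N spread over 10.9, 116 and 139.5 FPKM around the ZH11-D values of 41.4, 40.5 and 33.6 FPKM, and no direction can be read.

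In ABA signalling the phosphatases rose. The kinases passed the adjusted p threshold but not the log2FC threshold, and the receptor passed neither. All 5 listed clade A phosphatases, which brake ABA signalling until the receptor binds them, were called higher, and OsPYL, SAPK2 and SAPK4 were not called (list median 1.95). OsPP2C51 had 132, 251 and 205 FPKM in ZH11-D, against 3.05, 2.2004 and 1.04 FPKM in ZH11-N (log2FC 6.27, standard error 0.32, limma adjusted p = 5.22e-07). OsPP2C49 had 250.4, 309 and 306 FPKM in ZH11-D, against 16.7, 15.8 and 16.4 FPKM in ZH11-N (log2FC 4.097, standard error 0.15, limma adjusted p = 5.94e-08). The log2FC of OsPP2C50 was 2.37, that of OsPP2C09 1.99 and that of OsPP2C06 1.903, and OsPP2C51 was the phosphatase of lowest mean level in ZH11-N, 2.097 FPKM, against 16.3 to 121 FPKM for the other 4. The receptor gene OsPYL overlapped between the groups with 28.2, 40.2 and 35.9 FPKM in ZH11-D, against 47.5, 30.2 and 36.2 FPKM in ZH11-N. SAPK2 and SAPK4, SnRK2-type kinases, differed in opposite directions by less than the threshold of 1, with log2FC values of -0.597 and 0.89 (limma adjusted p = 0.021 and 0.0131). SAPK4 was called higher without ZH11-D replicate 1 (log2FC 1.02, limma adjusted p = 0.0135) or ZH11-N replicate 2 (log2FC 1.16, limma adjusted p = 0.0028).

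Of the bZIP factors that bind ABA-responsive promoter elements, 3 of 5 tested rose, and so did MODD, a regulator of OsbZIP23 listed with them. Of the 6 tested genes of this list 4 thus rose and none fell (median 2.03), and OSVP1 was below 1 FPKM in all 6 libraries. OsABF1 had 109.98, 165 and 158 FPKM in ZH11-D, against 8.05, 13.3 and 13.2 FPKM in ZH11-N (log2FC 3.602, standard error 0.29, limma adjusted p = 7.59e-06). OsbZIP23 (LOC_Os02g52780), a central activator of ABA-dependent drought genes, had 106, 129 and 109 FPKM in ZH11-D, against 11.4, 17.5 and 15.4 FPKM in ZH11-N (log2FC 2.93, standard error 0.23, limma adjusted p = 6.5e-06). This is the identifier in the study's gene table, while its methods give another for the promoter of this gene. OSBZ8, another bZIP factor, rose by 2.58, and MODD, which promotes the deactivation and degradation of OsbZIP23, rose with 18.6, 32.6 and 26.3 FPKM in ZH11-D, against 5.75, 10.1 and 11.3 FPKM in ZH11-N (log2FC 1.48). OsbZIP71 and OsbZIP72 overlapped between the groups, and OsbZIP72 had 51.3, 50.4 and 48.5 FPKM in ZH11-D, against 17.6, 48.3 and 65.9 FPKM in ZH11-N.

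**Figure D3:**
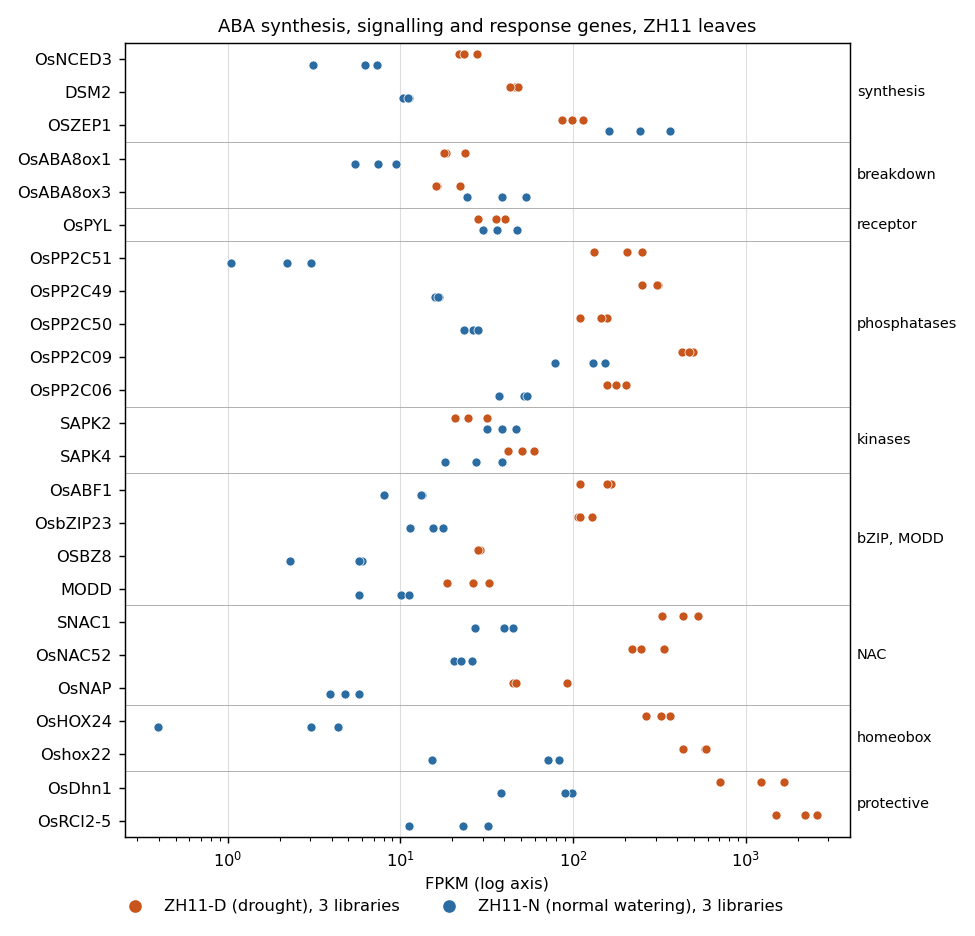
FPKM on a log axis for 24 genes ordered by role, with the 3 ZH11-D libraries in orange above the 3 ZH11-N libraries in blue. The 5 phosphatases, the bZIP factors, MODD and the NAC, homeobox and protective genes shown have all orange points to the right of all blue points, while the receptor OsPYL overlaps and OSZEP1, SAPK2 and OsABA8ox3 lie to the left. The genes are a selection from the lists, and members that overlapped or fell, among them OsbZIP71, OsbZIP72 and OMTN6, are not shown.

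NAC factors, plant-specific regulators named for NAM, ATAF and CUC, rose in most tested cases. 8 of 13 tested rose and 1 fell, with a median log2FC of 2.51. The study picked OsNAC10 and OMTN6 by their expression in these libraries, so the directions of both are not independent evidence. SNAC1 (LOC_Os03g60080), which acts in guard cells in stomatal closure, had 329, 530.3 and 429.8 FPKM in ZH11-D, against 27.2, 44.8 and 39.7 FPKM in ZH11-N (log2FC 3.52, standard error 0.25, limma adjusted p = 3.92e-06). OsNAC52 had 219.6, 334 and 246 FPKM in ZH11-D, against 20.5, 22.4 and 26.1 FPKM in ZH11-N (log2FC 3.49), and SNAC2, another stress NAC, rose to the highest mean ZH11-D level among the listed NAC genes after SNAC1 at 359.8 ± 156 FPKM, against 57.4 ± 8.81 FPKM in ZH11-N (SD, n = 3 each). The lowest ZH11-D library was 7.34-fold above the highest ZH11-N library for SNAC1, 8.404-fold for OsNAC52 and 3.103-fold for SNAC2. OsNAC5 rose by 2.51 and OMTN3 by 2.01. OsNAC10 (log2FC 2.77) and ONAC131 (log2FC 2.55) are similar genes of chromosomes 11 and 12 whose shared reads the counting could split, and their values ran in parallel over the libraries. OMTN6, a member of the family, was the only one called lower, with 1.66, 6.33 and 3.11 FPKM in ZH11-D, against 16.3, 13.4 and 18.1 FPKM in ZH11-N (log2FC -2.11). ONAC022 and ONAC095 were high in ZH11-N replicate 1 alone and were not called. OsNAC4, at a log2FC of 0.72, missed the threshold of 1.

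Of 16 DREB and ERF factors, the AP2-domain regulators of cold, drought and ethylene responses, 5 rose and none fell (median 0.56). Over all features 13.8% were called higher and 18.2% lower. OsRap2.6 had 25.98, 50.3 and 32.9 FPKM in ZH11-D, against 2.51, 3.52 and 2.599 FPKM in ZH11-N (log2FC 3.41, standard error 0.29, limma adjusted p = 1.04e-05). OsDRAP1, a DREB2-type factor for drought, rose by 1.63, OsERF3 by 1.55 and OsERF922 by 1.47 on the log2 scale. None of the 3 overlapped between the groups, and OsDRAP1 had 117, 138 and 128 FPKM in ZH11-D, against 39.8, 39.03 and 43.6 FPKM in ZH11-N. The cold-response factors OsDREB1A and OsDREB1B were not called and were highest in ZH11-N replicate 1, at 13.9 and 24.6 FPKM, and OsDREB2B overlapped between the groups with 21.5, 29.6 and 24.5 FPKM in ZH11-D, against 25.9, 16.9 and 17.6 FPKM in ZH11-N. OsEREBP2 passed the thresholds with a log2FC of 1.04 although its groups overlapped, and was not called without ZH11-D replicate 2 (log2FC 0.704, limma adjusted p = 0.138), ZH11-D replicate 3 (log2FC 1.15, limma adjusted p = 0.0533), ZH11-N replicate 2 (log2FC 0.87, limma adjusted p = 0.111) or ZH11-N replicate 3 (log2FC 0.86, limma adjusted p = 0.115).

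Among homeobox, MYB, zinc finger and heat shock factors 9 of 20 tested rose and 3 fell (median 1.05), and this list holds the largest rise of any named transcription factor. OsHOX24, a class I homeodomain-leucine zipper protein, had 263, 365 and 320.4 FPKM in ZH11-D, against 0.393, 4.36 and 3.04 FPKM in ZH11-N (log2FC 6.98, standard error 0.73, limma adjusted p = 3.75e-05). Oshox22, of the same class, had 434, 579 and 584 FPKM in ZH11-D, against 15.3, 71.9 and 82.3 FPKM in ZH11-N (log2FC 3.53), and without ZH11-N replicate 1, its lowest library, the log2FC was 2.77. The C2H2 zinc finger genes ZFP182 and ZFP15, neighbours by identifier, had log2FC values of 5.82 and 4.74, and ZFP182 had 81.1, 181 and 95.1 FPKM in ZH11-D, against 2.12, 0.914 and 1.63 FPKM in ZH11-N. OsHsfB2b, a class B heat shock factor, rose by 4.15, OsMYB1R1, a MYB-related factor, by 2.61 and Osmyb2, an R2R3 MYB, by 1.95. DST, a zinc finger protein that holds stomata open through control of hydrogen peroxide, fell with 55.96, 28.99 and 33.9 FPKM in ZH11-D, against 132, 159 and 161 FPKM in ZH11-N (log2FC -1.97, standard error 0.29, limma adjusted p = 0.000319), while its co-activator DCA1 rose with 35.7, 49.05 and 47.5 FPKM in ZH11-D, against 18.4, 9.61 and 7.82 FPKM in ZH11-N (log2FC 1.92). Both moved without overlap, in opposite directions. OsHsfC1b turned on 1 library, with 13.5, 24.1 and 23.4 FPKM in ZH11-D, against 22.8, 0.213 and 0.225 FPKM in ZH11-N. It was not called (log2FC 3.14, limma adjusted p = 0.084), and was called higher without ZH11-N replicate 1 (log2FC 4.81, limma adjusted p = 0.00485). OsHSFA2d, a class A heat shock factor, gave a log2FC of -1.79 with the library, not called, and a call at -2.91 without it (limma adjusted p = 0.191 and 0.0296).

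Protective proteins and enzymes of osmolytes rose in 9 of 15 tested members and fell in none (median 2.01). Of these, the study picked OsRCI2-5 and its target gene OsSRO1c with the expression in these libraries, so their directions are not independent evidence. OsRCI2-5 (LOC_Os03g17790), a small hydrophobic membrane protein induced by cold and drought, had 1496, 2569.8 and 2197 FPKM in ZH11-D, against 11.2, 31.97 and 23.2 FPKM in ZH11-N (log2FC 6.61, standard error 0.52, limma adjusted p = 6.62e-06). OsDhn1, a dehydrin, the hydrophilic proteins that shield membranes and proteins in dry cells, had 703, 1659 and 1217 FPKM in ZH11-D, against 38.2, 99.01 and 90.2 FPKM in ZH11-N (log2FC 3.997, standard error 0.45, limma adjusted p = 5.64e-05). The lowest ZH11-D library was 7.102-fold above the highest ZH11-N library for OsDhn1 and 46.8-fold for OsRCI2-5. OsANN1, a calcium-binding annexin, rose by 4.96, OsSRO1c, an SRO protein of stomatal closure, by 5.12 and OsLti6b, a relative of OsRCI2-5, by 3.29. OsP5CS, the enzyme of the rate-limiting step of proline synthesis, had 80.6, 133 and 125 FPKM in ZH11-D, against 12.8, 20.3 and 17.2 FPKM in ZH11-N (log2FC 2.71). The ferritins OsFER1 and OsFER2, iron stores encoded by similar genes of chromosomes 11 and 12, rose by 2.398 and 2.01, with shared reads again a limit. OsLEA5, a late embryogenesis abundant protein, had a log2FC of 0.895 and missed the threshold, which it passed without ZH11-N replicate 1 (log2FC 1.14, limma adjusted p = 0.00236) or ZH11-D replicate 1 (log2FC 1.004, limma adjusted p = 0.0154). OsINO1, the inositol phosphate synthase, had 304, 320.2 and 279 FPKM in ZH11-D, against 15.1, 174 and 159 FPKM in ZH11-N, with no overlap and no call (limma adjusted p = 0.131). The abundant metallothionein OsMTI-3a overlapped between the groups at 10692 ± 933 FPKM in ZH11-D and 12595 ± 2427 FPKM in ZH11-N (SD, n = 3 each).

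Of 18 kinase and calcium signalling genes 5 rose and 1 fell (median 0.16), beside 13.8% higher and 18.2% lower over all features. The study picked OsCIPK15 by its expression in these libraries, so its direction is not independent evidence. OsCIPK15, a CBL-interacting kinase of the sugar and oxygen-deficit response, had 19.6, 41.7 and 30.6 FPKM in ZH11-D, against 3.68, 2.16 and 1.79 FPKM in ZH11-N (log2FC 3.34, standard error 0.38, limma adjusted p = 6.17e-05). OsMPK3 rose by 1.37 and OsMPK12 by 1.15, both mitogen-activated kinases. The receptor-like kinase OsSIK1 was the only fall, with 9.35, 3.86 and 4.48 FPKM in ZH11-D, against 18.8, 29.5 and 21.1 FPKM in ZH11-N (log2FC -1.96). Among 16 ion and metal transport genes 4 rose and 2 fell (median 0.18). OsSLAC1, the guard-cell anion channel through which stomata close, had 6.93, 11.5 and 8.396 FPKM in ZH11-D, against 5.06, 2.59 and 1.799 FPKM in ZH11-N (log2FC 1.44, standard error 0.31, limma adjusted p = 0.00268), and OsNHX1, a vacuolar sodium-proton antiporter, had 56.4, 74.9 and 62.3 FPKM in ZH11-D, against 14.3, 22.5 and 15.5 FPKM in ZH11-N (log2FC 1.88, standard error 0.21, limma adjusted p = 6.39e-05). Both were higher in every ZH11-D library. The calcium-permeable channel OsTPC1 rose by 1.199, and the metal transporters OsZIP8 and OsYSL16 fell with log2FC values of -1.93 and -1.69.

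Photosynthesis genes fell more often than they rose. Of 12 tested genes for photosynthesis, the Calvin cycle and photorespiration 5 fell and 1 rose (median -0.97). OsCA1 (LOC_Os01g45274), the carbonic anhydrase that equilibrates carbon dioxide and bicarbonate, had 1991, 734 and 735 FPKM in ZH11-D, against 6535, 6858 and 14606 FPKM in ZH11-N (log2FC -3.08, standard error 0.50, limma adjusted p = 0.000563). It was 0.139% ± 0.0947 of the summed FPKM in ZH11-D and 1.07% ± 0.401 in ZH11-N (SD, n = 3 each), the largest loss of share of any named gene. OsAld-Y, a fructose-bisphosphate aldolase, had 362, 185 and 203 FPKM in ZH11-D, against 653, 701 and 1301 FPKM in ZH11-N (log2FC -1.82), and GLO3, a glycolate oxidase of photorespiration, had 261, 198 and 173 FPKM in ZH11-D, against 574, 543 and 913 FPKM in ZH11-N (log2FC -1.66). The Fd gene for a ferredoxin had a log2FC of -1.25 and OscpSRP43, a particle that carries light-harvesting proteins to the thylakoid, one of -1.33, both called lower. OscpSRP43 lost its call without ZH11-D replicate 2 (log2FC -1.04, limma adjusted p = 0.0621) or 3 (log2FC -1.22, limma adjusted p = 0.0516). OsIM1, a plastid terminal oxidase, was the only member called higher, with 21.4, 51.8 and 41.2 FPKM in ZH11-D, against 7.77, 5.84 and 7.37 FPKM in ZH11-N (log2FC 2.28). OsPgk2, a phosphoglycerate kinase, was also higher without overlap and missed only the threshold of 1 (log2FC 0.95, limma adjusted p = 0.0193). OsCP12, a regulator of Calvin cycle enzymes, did not overlap either but passed neither threshold (log2FC 0.31, limma adjusted p = 0.0612). OsPgk2 was called higher without ZH11-D replicate 1 (log2FC 1.09, limma adjusted p = 0.0203), ZH11-N replicate 2 (log2FC 1.14, limma adjusted p = 0.0139) or ZH11-N replicate 3 (log2FC 1.04, limma adjusted p = 0.0315). GLO1, another glycolate oxidase, overlapped between the groups (log2FC -0.63, limma adjusted p = 0.07).

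Chlorophyll synthesis genes fell in 2 of 5 cases, with none higher (median -0.83). OsCHLH, the large subunit of magnesium chelatase, had 99.9, 61.5 and 69.4 FPKM in ZH11-D, against 142, 199 and 334 FPKM in ZH11-N (log2FC -1.48, standard error 0.38, limma adjusted p = 0.00779). OsPORA, a protochlorophyllide oxidoreductase, had 498, 143 and 216 FPKM in ZH11-D, against 909, 627 and 584 FPKM in ZH11-N (log2FC -1.48, standard error 0.56, limma adjusted p = 0.0457), and its call did not rest on all libraries. Leaving out ZH11-D replicate 2 (log2FC -1.08, limma adjusted p = 0.17) or 3 (log2FC -1.38, limma adjusted p = 0.119) or ZH11-N replicate 1 (log2FC -1.28, limma adjusted p = 0.111), 2 (log2FC -1.55, limma adjusted p = 0.0789) or 3 (log2FC -1.601, limma adjusted p = 0.0702) lost it. OsCRD1 and OsChlP, later enzymes of the route, had log2FC values of -0.83 and -0.67 and missed the threshold of 1, which OsCRD1 passed without ZH11-D replicate 1 (log2FC -1.01, limma adjusted p = 0.0266) or ZH11-N replicate 1 (log2FC -1.01, limma adjusted p = 0.0229). Of 8 regulators of the chloroplast, OsPIL13, a phytochrome-interacting factor-like protein, fell with 11.7, 8.35 and 6.62 FPKM in ZH11-D, against 44.7, 46.6 and 86.8 FPKM in ZH11-N (log2FC -2.64, standard error 0.34, limma adjusted p = 0.000132). OsDOS, a zinc finger protein that delays leaf senescence, rose with 148, 94.9 and 125 FPKM in ZH11-D, against 12.2, 28.4 and 20.1 FPKM in ZH11-N (log2FC 2.63). OsGLK1, an activator of chloroplast genes, overlapped with 76.1, 68.05 and 62.7 FPKM in ZH11-D, against 90.6, 65.2 and 109.9 FPKM in ZH11-N.

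Chlorophyll breakdown and senescence genes moved the other way, with the highest median of all lists, 2.62: 5 of 7 rose and none fell. OsCV, for chloroplast vesiculation, in which plastid proteins leave the organelle, had 122, 279 and 121 FPKM in ZH11-D, against 18.05, 4.99 and 1.74 FPKM in ZH11-N (log2FC 4.72, standard error 0.77, limma adjusted p = 0.00056). Osh36, an aminotransferase marker of senescent leaves, had 110.01, 302 and 197 FPKM in ZH11-D, against 7.61, 28.03 and 17.6 FPKM in ZH11-N (log2FC 3.54, standard error 0.53, limma adjusted p = 0.000337). OsNAP, a NAC activator of leaf senescence that also counts in the NAC list, had 44.8, 91.9 and 46.5 FPKM in ZH11-D, against 3.91, 4.81 and 5.73 FPKM in ZH11-N (log2FC 3.47). In these 3 genes ZH11-D replicate 2 was the highest library. SGR, the stay-green protein that starts chlorophyll degradation, rose by 2.62 and NYC3, a hydrolase of the same route, by 1.58. NYC1, the chlorophyll b reductase, had 79.2, 142 and 87.1 FPKM in ZH11-D, against 101, 35.2 and 37.9 FPKM in ZH11-N and was called only without ZH11-N replicate 1 (log2FC 0.95 with it and 1.43 without it, limma adjusted p = 0.0979 and 0.0106). OsVPE2, the remaining member, had the list's lowest log2FC, -0.95, and was not called. Under the alternatives at most 1 member of the list was called lower.

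Cell wall and cell division genes fell in 6 of 13 tested cases and rose in 1 (median -0.94), and the largest falls were those of wall genes. OsXTH8, a xyloglucan endotransglucosylase and hydrolase, had 54.5, 29.98 and 30.6 FPKM in ZH11-D, against 236, 605 and 454 FPKM in ZH11-N (log2FC -3.43, standard error 0.41, limma adjusted p = 8.04e-05). CslF6, the synthase of the mixed-linkage glucan of grass walls, had 45.4, 12.6 and 16.7 FPKM in ZH11-D, against 82.4, 276 and 195 FPKM in ZH11-N (log2FC -2.92, standard error 0.62, limma adjusted p = 0.0026). OsTBL2, of a family that acetylates wall polymers, had 3.02, 0.833 and 0.757 FPKM in ZH11-D, against 12.4, 38.2 and 30.4 FPKM in ZH11-N (log2FC -3.78). Together with OsEXPB3 above, each of these 4 was lower in every ZH11-D library, and in each ZH11-D replicate 1 kept the most. OsXXT1, a xyloglucan xylosyltransferase, and KOB1 fell less, with log2FC values of -1.201 and -1.05, and KOB1 lost its call without ZH11-D replicate 1 (log2FC -0.96, limma adjusted p = 0.00486) or ZH11-N replicate 2 (log2FC -0.93, limma adjusted p = 0.00517). OsGRF1, a growth-regulating factor, was low in both groups and rose with 2.52, 3.96 and 3.35 FPKM in ZH11-D, against 1.04, 0.53998 and 0.293 FPKM in ZH11-N (log2FC 1.78), while OsGRF5 and the cell cycle gene OsCCS52A overlapped.

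**Figure D4:**
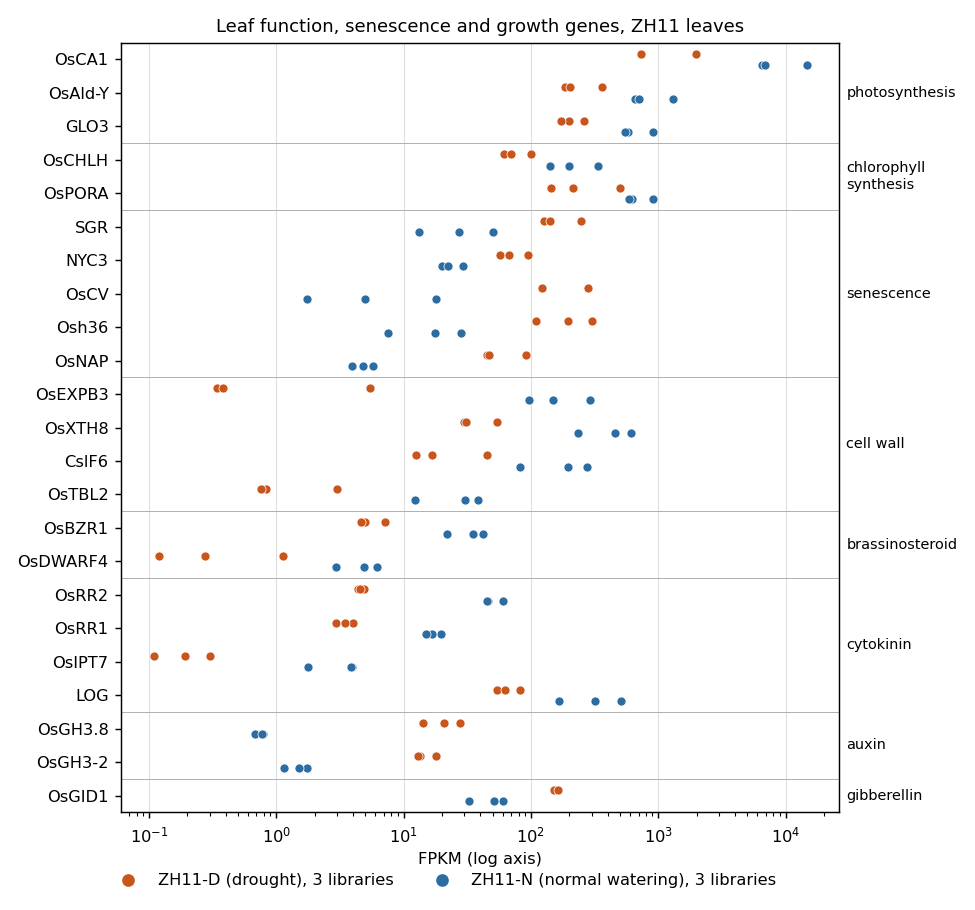
FPKM on a log axis for 23 genes of leaf function, senescence and growth, with the 3 ZH11-D libraries in orange above the 3 ZH11-N libraries in blue. Photosynthesis, chlorophyll synthesis, cell wall, brassinosteroid and cytokinin genes shown lie to the left in ZH11-D. The senescence genes shown, both GH3 genes and OsGID1 lie to the right. The genes are a selection from the lists that leaves out members that overlapped or went the other way. Among those left out are OsIM1, OsHk3, OsGRF1, NYC1, OsVPE2, OsGASR2 and ARF8.

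Growth hormones showed opposite changes within a pathway. Of 11 cytokinin and strigolactone genes 5 fell and 3 rose (median -0.72). OsRR2, a type-A response regulator that cytokinin induces, had 4.405, 4.87 and 4.57 FPKM in ZH11-D, against 46.2, 45.1 and 60.03 FPKM in ZH11-N (log2FC -3.305, standard error 0.17, limma adjusted p = 4.95e-07). OsRR1, of the same type, had a log2FC of -2.15, OsIPT7, which makes cytokinin, one of -2.34, and LOG, which releases its active form, one of -2.19. The cytokinin receptor kinase OsHk3 rose with 35.8, 41.8 and 38.8 FPKM in ZH11-D, against 13.4, 17.1 and 15.2 FPKM in ZH11-N (log2FC 1.32). The strigolactone receptor D14 and its F-box partner D3 rose by 1.47 and 1.97, and D53, the repressor that they degrade, fell with 6.47, 4.91 and 4.69 FPKM in ZH11-D, against 30.8, 18.6 and 14.9 FPKM in ZH11-N (log2FC -1.85).

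Of 10 auxin genes 3 rose and 2 fell (median 0.25, and 0.03 without ZH11-N replicate 1). Both genes that conjugate auxin to amino acids rose steeply. OsGH3.8 had 14.3, 27.7 and 20.8 FPKM in ZH11-D, against 0.6796, 0.793 and 0.775 FPKM in ZH11-N (log2FC 4.05, standard error 0.22, limma adjusted p = 7.74e-07), and OsGH3-2 had 13.3, 17.8 and 13.1 FPKM in ZH11-D, against 1.75, 1.16 and 1.501 FPKM in ZH11-N (log2FC 2.95, standard error 0.19, limma adjusted p = 2.18e-06). The Aux/IAA repressor OsIAA6 rose by 2.197, while OsIAA10, of the same family, and the auxin response factor ARF8 had log2FC values of -1.63 and -2.37. Of 6 gibberellin genes the receptor OsGID1 rose with 152, 153 and 162 FPKM in ZH11-D, against 32.8, 60.5 and 51.6 FPKM in ZH11-N (log2FC 1.72, standard error 0.26, limma adjusted p = 0.000371), and OsGA3ox2, the last enzyme of synthesis, and OsGASR2, a gibberellin-stimulated gene, had log2FC values of -1.56 and -1.82. OsGA3ox2 was the one of these whose groups overlapped, and its call was lost without ZH11-D replicate 1 (log2FC -1.21, limma adjusted p = 0.0557), ZH11-N replicate 2 (log2FC -1.25, limma adjusted p = 0.059) or ZH11-N replicate 3 (log2FC -1.37, limma adjusted p = 0.0547). Of 5 tested brassinosteroid genes, OsDWARF4, an enzyme of synthesis, had 1.13, 0.121 and 0.277 FPKM in ZH11-D, against 4.91, 2.93 and 6.23 FPKM in ZH11-N (log2FC -2.44) and OsBZR1, the factor that carries the signal to the genome, had 7.11, 4.97 and 4.63 FPKM in ZH11-D, against 21.8, 42.1 and 34.9 FPKM in ZH11-N (log2FC -2.43, standard error 0.27, limma adjusted p = 5.81e-05). The signalling kinase OsBSK1-2 rose by 1.04, and that call was lost without ZH11-N replicate 1 (log2FC 0.97, limma adjusted p = 0.00189) or ZH11-D replicate 2 (log2FC 0.93, limma adjusted p = 0.00292). OsBAK1, the co-receptor, was lower without overlap but its log2FC of -0.94 missed the threshold.

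Jasmonate, ethylene and WRKY genes were called in both directions. For the jasmonate and WRKY lists the shares lay near the 13.8% higher and 18.2% lower of all features. Those shares are therefore not a result about either group. In the jasmonate list, 1 of 9 rose and 2 fell (median 0.04). OsJMT1, which methylates jasmonate, had 3.25, 1.397 and 1.18 FPKM in ZH11-D, against 7.45, 57.3 and 51.8 FPKM in ZH11-N (log2FC -3.66, standard error 0.76, limma adjusted p = 0.00243), and RAI1, a bHLH factor of defence, had a log2FC of -2.59 at a highest level of 8.99 FPKM. The regulators OsMYC2 and OsJAZ1 overlapped between the groups, and OsMYC2 had 34.1, 34.6 and 31.8 FPKM in ZH11-D, against 27.1, 38.7 and 32.6 FPKM in ZH11-N. Of 7 ethylene genes, OsEIL2, a factor of the EIN3 type, and OsACS2, an enzyme of ethylene synthesis, rose by 1.57 and 1.52, and the receptor ETR3 fell with 3.03, 2.32 and 2.56 FPKM in ZH11-D, against 9.897, 7.84 and 7.12 FPKM in ZH11-N (log2FC -1.48). The call of OsACS2 was lost without ZH11-D replicate 2 (log2FC 1.25, limma adjusted p = 0.0723), ZH11-D replicate 3 (log2FC 1.47, limma adjusted p = 0.0517) or ZH11-N replicate 3 (log2FC 1.43, limma adjusted p = 0.0527). Of 9 tested WRKY factors 1 rose and 2 fell (median 0.29). OsWRKY71 rose with 32.1, 69.4 and 43.6 FPKM in ZH11-D, against 24.95, 8.18 and 7.34 FPKM in ZH11-N (log2FC 1.95), and OsWRKY45, a regulator of blast resistance, fell with 8.31, 4.86 and 4.97 FPKM in ZH11-D, against 23.2, 20.1 and 22.4 FPKM in ZH11-N (log2FC -1.81, standard error 0.21, limma adjusted p = 6.03e-05). For OsWRKY53 and OsWRKY24 ZH11-N replicate 1 lay within or above the ZH11-D range, and both were called higher only without that library (log2FC 1.67 and 1.63, against 0.95 and 0.795 with it).

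The 4 listed water channels of the plasma membrane differed from each other. OsPIP2;7 fell with 119, 15.2 and 22.7 FPKM in ZH11-D, against 1584, 303 and 366 FPKM in ZH11-N (log2FC -3.99, standard error 0.94, limma adjusted p = 0.00479), and without ZH11-N replicate 1, its highest library, the log2FC was -3.24 (limma adjusted p = 0.0157). OsPIP1;3 was called higher with a log2FC of 1.095, and kept that call only when no library or ZH11-N replicate 3 was left out. It was lost without ZH11-D replicate 1 (log2FC 1.16, limma adjusted p = 0.0726), 2 (log2FC 1.09, limma adjusted p = 0.102) or 3 (log2FC 1.04, limma adjusted p = 0.114) and without ZH11-N replicate 1 (log2FC 0.69, limma adjusted p = 0.148) or 2 (log2FC 1.16, limma adjusted p = 0.0773). The abundant channels OsPIP1;1 and OsPIP1;2 overlapped, and OsPIP1;2 had 2263, 2588 and 2512 FPKM in ZH11-D, against 823, 2502 and 1955 FPKM in ZH11-N.

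Sugar and starch genes rose in 5 of 14 cases and fell in none, around a median of 0.18. OsAPL3, a large subunit of the ADP-glucose pyrophosphorylase that commits glucose to starch, had 233, 357 and 542 FPKM in ZH11-D, against 10.7, 33.3 and 19.4 FPKM in ZH11-N (log2FC 4.18, standard error 0.47, limma adjusted p = 5.68e-05). OSINV3, a vacuolar invertase that splits sucrose, had 663, 339.7 and 347 FPKM in ZH11-D, against 9.94, 104 and 72.6 FPKM in ZH11-N (log2FC 3.32, standard error 0.87, limma adjusted p = 0.00875), and its log2FC was 2.29 without ZH11-N replicate 1, its lowest library. OsMST4, a monosaccharide transporter, rose by 2.695. Of other enzymes of starch metabolism, the debranching enzyme ISA3 rose with a log2FC of 1.65 and the phosphorylase Pho1 with one of 1.19. The call of Pho1 was lost without ZH11-D replicate 3 (log2FC 0.96, limma adjusted p = 0.0886), ZH11-N replicate 2 (log2FC 1.11, limma adjusted p = 0.0642) or ZH11-N replicate 3 (log2FC 1.02, limma adjusted p = 0.0777). OsGBSSII, the granule-bound starch synthase of leaves, had 106, 58.4 and 97.2 FPKM in ZH11-D, against 28.2, 319 and 409 FPKM in ZH11-N, and was not called with or without ZH11-N replicate 1 (limma adjusted p = 0.536 and 0.0895).

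Nitrogen and amino acid genes rose in 6 of 14 cases and fell in 1 (median 0.63). OsLKR, which starts lysine breakdown, had 36.5, 93.1 and 57.2 FPKM in ZH11-D, against 2.35, 6.02 and 2.904 FPKM in ZH11-N (log2FC 3.87, standard error 0.43, limma adjusted p = 5.37e-05). OsASN1, an asparagine synthetase, had 138, 161 and 110.3 FPKM in ZH11-D, against 10.1, 45.5 and 6.604 FPKM in ZH11-N (log2FC 3.16, standard error 0.62, limma adjusted p = 0.00175). OsGAD1, a glutamate decarboxylase that makes gamma-aminobutyric acid, had 187, 173 and 183 FPKM in ZH11-D, against 15.8, 36.7 and 35.4 FPKM in ZH11-N (log2FC 2.700, standard error 0.36, limma adjusted p = 0.000173). All 3 were lower in every ZH11-N library. The aminotransferase OsAlaAT1 rose by 2.39, the amino acid permease OsAAP3 by 2.103 and the urea transporter OsDUR3 by 1.89. The nitrate transporter OsNPF2.4 fell with 75.99, 60.9 and 69.6 FPKM in ZH11-D, against 118, 256 and 169 FPKM in ZH11-N (log2FC -1.32). OsGS1;1, a cytosolic glutamine synthetase, was called lower only without ZH11-N replicate 1 (log2FC -1.24, against -0.69 with it).

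Redox and detoxification genes rose in 7 of 11 tested cases and fell in 1 (median 1.24). OsAOX1a, the alternative oxidase of mitochondria, had 35.1, 65.02 and 49.2 FPKM in ZH11-D, against 6.75, 3.93 and 5.16 FPKM in ZH11-N (log2FC 3.11, standard error 0.26, limma adjusted p = 8.81e-06). OsETHE1, a mitochondrial sulfur dioxygenase, had 57.2, 76.2 and 62.5 FPKM in ZH11-D, against 13.7, 14.97 and 10.2 FPKM in ZH11-N (log2FC 2.29, standard error 0.16, limma adjusted p = 3.16e-06). OsTRXh1, a thioredoxin, was the most abundant of the list, with 2307, 4552 and 3554 FPKM in ZH11-D, against 757, 752 and 1141 FPKM in ZH11-N (log2FC 1.95). Every ZH11-D library of the 3 was above every ZH11-N library. The ascorbate peroxidase OsAPX1 of the cytosol rose by 1.102 with 435, 512 and 459 FPKM in ZH11-D, against 217, 224 and 212 FPKM in ZH11-N, whereas the peroxisomal-type OsAPX4 was lower without overlap and missed the threshold (log2FC -0.71). OsVTC1-3, on the route to ascorbate, fell with 11.3, 8.2998 and 5.86 FPKM in ZH11-D, against 17.98, 25.8 and 16.9 FPKM in ZH11-N (log2FC -1.22), and lost its call without ZH11-D replicate 3 (log2FC -0.995, limma adjusted p = 0.00557). OsGGP, a later enzyme of that route, had 245, 306 and 284 FPKM in ZH11-D, against 50.8, 595 and 663 FPKM in ZH11-N, and its log2FC was 0.03 with ZH11-N replicate 1 and -1.18 without it, neither called.

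Of 7 cuticle and lipid genes 2 fell and none rose (median -0.74), and without ZH11-N replicate 1 the list had 3 lower and a median of -1.38. OsABCG5, a transporter for the apoplastic barriers, had 2.16, 3.02 and 2.32 FPKM in ZH11-D, against 9.03, 10.997 and 7.55 FPKM in ZH11-N (log2FC -1.69, standard error 0.18, limma adjusted p = 4.26e-05), and OsMGD, a synthase of the galactolipids of the thylakoid, had 11.4, 11.3 and 10.4 FPKM in ZH11-D, against 16.3, 32.9 and 26.4 FPKM in ZH11-N (log2FC -1.103). The call of OsMGD was lost without ZH11-N replicate 2 (log2FC -0.89, limma adjusted p = 0.00847). OsFAD7, a plastid fatty acid desaturase, had 22.1, 20.8 and 17.4 FPKM in ZH11-D, against 25.7, 219.9 and 302 FPKM in ZH11-N. It was not called with ZH11-N replicate 1 (log2FC -2.56, limma adjusted p = 0.0542) and called lower without it (log2FC -3.66, limma adjusted p = 0.00575). Of 15 clock, photoreceptor and flowering-time genes, 0 were called higher and 2 lower by limma, beside 13.8% and 18.2% of all features. The unadjusted limma p was under 0.05 in 5 of the 15. OsMADS56 had 36.1, 39.8 and 32.9 FPKM in ZH11-D, against 94.7, 84.8 and 102 FPKM in ZH11-N (log2FC -1.36, standard error 0.13, limma adjusted p = 2.57e-05) and OsCDF1 had 18.1, 28.9 and 24.4 FPKM in ZH11-D, against 68.4, 55.9 and 80.1 FPKM in ZH11-N (log2FC -1.51, standard error 0.20, limma adjusted p = 0.000136), both flowering-time regulators. In 10 of the 15 genes ZH11-N replicate 1 lay outside the range of the other 5 ZH11 libraries. The same share over all features was not computed, so this count is not a result about clock genes.

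Across the pathway lists, with the leaf markers (median -1.48) and the markers of other tissues left out, the medians ran from -0.97 for photosynthesis to 2.62 for chlorophyll breakdown. They stood at 2 log2 units or more for senescence genes, NAC factors, ABA-responsive bZIP factors and protective proteins, and below -0.9 for photosynthesis, brassinosteroid, cell wall and gibberellin genes. Without ZH11-N replicate 1 the median of the NAC list was 1.98 and that of the senescence list 2.13. Beside the auxin and cuticle lists, leaving out that library moved the median by more than 1.5 times in 6 pathway lists, to -0.28 for ABA metabolism, -0.588 for chloroplast regulators (against -0.376 with it), -0.12 for jasmonate genes, -0.0732 for water channels, 0.58 for WRKY factors and -0.0057 for ion transport. Called members then numbered 5 lower among homeobox, MYB, zinc finger and heat shock factors, 2 lower among chloroplast regulators and 1 lower each among DREB and ERF factors and sugar genes. They numbered 3 higher among WRKY factors, and 2 higher and 7 lower among cell wall genes. Photosynthesis genes then had 6 lower, and redox genes had 6 higher. Where a list had no limma call in a direction, its members with an unadjusted p under 0.05 in that direction numbered 0 for bZIP factors, protective proteins and chlorophyll synthesis, 1 for ABA signalling, DREB and ERF factors, senescence and cuticle genes, and 2 for sugar and starch genes. The medians of 5 of the 29 lists, those of ABA metabolism, kinases, jasmonate, water channels and ion transport, took both signs over the alternative settings. Apart from OsNAC10 and OsRCI2-5, the lists share the study's selection for SNAC1-bound DNA, and 19 of their 300 genes belong to its target list.

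**Figure D5:**
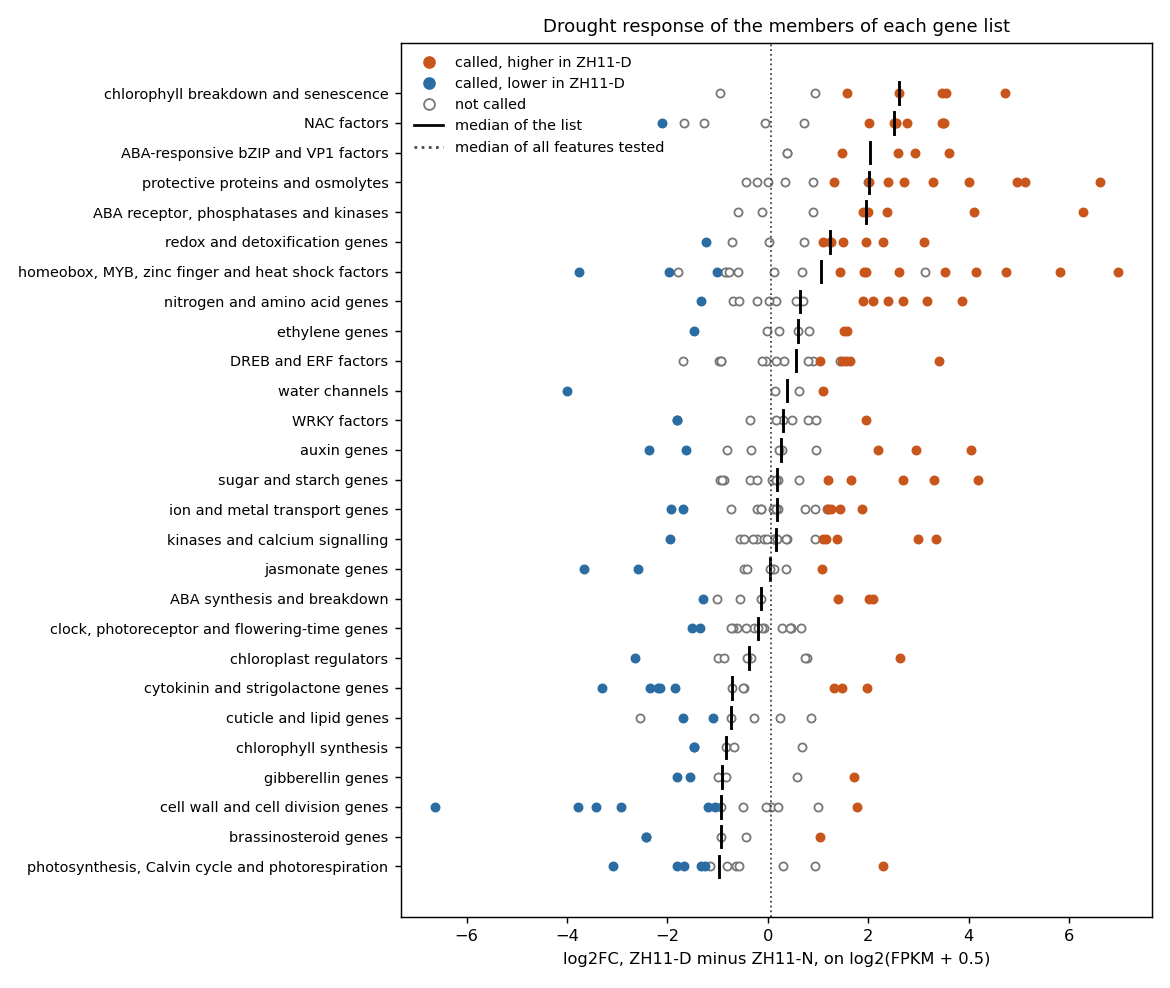
log2FC of the tested members of each gene list, on log2(FPKM + 0.5), ordered by the list's median (black bar), with called members filled in orange (higher in ZH11-D) or blue (lower) and members not called open. Senescence and NAC genes are at the top with medians of 2.62 and 2.51, photosynthesis is at the bottom of the 27 pathway lists plotted, which leave out both marker lists, at -0.97, and the dotted line is the median of all features, 0.06.

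Whether a response named here was particular to ZH11 was tested as the difference between its log2FC and that of OE-19 in the same fit. Over all features 4 passed a limma adjusted p of 0.05, and among the features with a name SNAC1 alone did. Its difference, 3.61 log2 units (standard error 0.36, limma adjusted p = 0.0168), sets a ZH11 response of 3.52 against one of -0.09 in OE-19, where the transcript comes from a transgene as well. The test was missed without ZH11-D replicate 2 (difference 3.44, limma adjusted p = 0.086), ZH11-N replicate 1 (difference 3.40, limma adjusted p = 0.0522) or ZH11-N replicate 3 (difference 3.67, limma adjusted p = 0.0907). For no other named gene was a difference between the genotypes shown, which does not show that the responses were equal.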

How the data were processed

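RNA was sequenced from leaves of ZH11 and OE-19 plants, and this text is about the 6 ZH11 libraries. Per the labels, the authors mapped reads to the MSU 7.0 rice genome and deposited FPKM values per feature, and the submitters' processing notes name HISAT2, StringTie and DESeq2. Versions and strandedness are not given in the sources used here, and antisense partners cannot be told apart. FPKM keep no read number, so depth is unknown and no counting interval is given. Whole reads were not recovered.

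Samples were grouped by GEO's labels, and 0 per-sample columns of the table were left out. FPKM were tested with limma 3.58.1 in R 4.3.3 (trended empirical Bayes, two-sided) on log2(FPKM + 0.5) over 19979 of 55490 features with a mean of at least 1 FPKM over 12 libraries, in one fit of 4 groups, with Benjamini-Hochberg adjustment and a feature was called at an adjusted p under 0.05 together with an absolute log2FC of 1 or more. The replicate number was not a block. On simulated data of 19979 genes for ZH11-D against ZH11-N the fit recovered 70% of planted genes at a log2FC of 1.5, 86% at 2, 98% at 3 and 100% at 5 (50 each), with 6 other genes called. The planted genes were a far smaller share than the features called in the real data. Each simulated gene also had the same spread in every library, so these rates need not hold for the real libraries. Text names the 15 largest non-overlapping rises and falls over all features, of which the first 2 per direction and OsEXPB3 are given, since the others carry no name, the 20 per direction among named features, the 10 largest gains and losses of share of summed FPKM (those without a name are left out), and the members of the lists. Members and lists were chosen with earlier results of these data known. Gene names come from the study's tables of 577 paired identifiers, of which 570 were in the FPKM table. Alternatives were 2 pseudocounts, 2 filters, 2 scalings, a higher log2FC threshold, the ZH11 libraries alone, replicate blocks and each ZH11 library left out. The peak tables hold the authors' own comparisons and were not used, and a planned count of promoter motifs was not run.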

Additional observations from a re-analysis of the deposited data

Results flagged for a closer look

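The response of SNAC1 differed between the genotypes. Its log2FC was 3.52 in ZH11 and -0.09 in OE-19, a difference of 3.61 (standard error 0.36, limma adjusted p = 0.0168 in the interaction test). All 3 ZH11-D libraries were above all 3 ZH11-N libraries. The difference stayed between 3.40 and 3.79 under the alternatives, with limma adjusted p between 0.00122 and 0.0907. OE-19 carries a SNAC1 transgene, and reads of the transgene and of the native gene cannot be told apart in these values.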

How the results depend on the processing

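Of the 166 genes called in the text, 134 were called under every alternative. Those that lost or gained a call when 1 library was left out are given with that value beside them. Called features numbered 2759 higher and 3632 lower in ZH11-D, and kept within 1.5 times of that under the alternatives except for 1674 higher at a log2FC threshold of 1.5 and 2411 lower at a mean of at least 5 FPKM, where fewer features were tested. Leaving out 1 library gave 2401 to 2955 higher and 3229 to 4046 lower. The median log2FC of all features was 0.06 as deposited, -0.01 with median ratio scaling and 0.09 with quantile normalization. The replicate numbers were not treated as pairs, since deviations of same-numbered ZH11-D and ZH11-N libraries correlated at -0.127, -0.0994 and -0.0432. With the replicate number as a block, 2815 features were called higher and 3667 lower over 12 libraries, and 2536 and 3065 over the 6 ZH11 libraries. Features whose response differed between ZH11 and OE-19 numbered 4, and 1 with a replicate block, 1 with a pseudocount of 0.1, 14 without a filter on low values, 1 at a mean of at least 5 FPKM, 2 with quantile normalization and 0 to 5 when 1 library was left out. Signs turned only in genes that were not called: OsFKF1 (0.15 with a pseudocount of 0.1, 0.0096 with quantile normalization and -1.11 to 1.76 without 1 library), OsGGP (-0.0506 with median ratio scaling, -0.10 with quantile normalization, -1.18 to 0.67 without 1 library), OsMYC2 (-0.0345 and -0.0355 with these scalings, -0.0850 to 0.17 without 1 library), OsMTI-3a (0.10 with quantile normalization), and without 1 library OsPRR1 (-1.23 to 0.40), OsSIG5 (-0.73 to 1.58), PSY2 (-1.72 to 0.0914), OsPYL (-0.26 to 0.0579) and OsbZIP72 (-0.17 to 0.77). Their causes were not tested. Shares of summed FPKM over MSU 7.0 features only moved by less than the spread of the libraries. With 3 libraries per group depth is unknown, and a difference below 1 log2 unit was never called, by the rule.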

Other observations

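The genes below lie outside the pathway lists, carry a name or product in the study's tables, and were chosen after their values were seen. Several regulators rose beside the lists. LOC_Os06g03670, annotated as a dehydration-responsive element-binding protein, had 18.7, 40.6 and 20.9 FPKM in ZH11-D, against 2.08, 0.452 and 0.506 FPKM in ZH11-N (log2FC 4.25, standard error 0.50, limma adjusted p = 7.15e-05). LOC_Os03g08320, a ZIM domain protein and so of the family that holds the jasmonate repressors, had 22.2, 36.5 and 26.9 FPKM in ZH11-D, against 0.947, 1.66 and 0.979 FPKM in ZH11-N (log2FC 4.09). All ZH11-D libraries of both genes lay above all ZH11-N libraries. OsbHLH120 rose by 2.39, OsbZIP60, a factor of the unfolded protein response, by 1.796 and OsLBD38 by 1.98 on the log2 scale. LOC_Os10g41550, a beta-amylase that releases maltose from starch, had 27.1, 96.5 and 49.1 FPKM in ZH11-D, against 1.58, 3.61 and 3.399 FPKM in ZH11-N (log2FC 3.99), and DAO, a dioxygenase that oxidises auxin, had 34.9, 74.97 and 53.5 FPKM in ZH11-D, against 4.598, 12.2 and 12.5 FPKM in ZH11-N (log2FC 2.48). The amino acid transporter LOC_Os02g09810 rose by 3.27.

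Among the falls, the formins OsFH1 and OsFH15, which nucleate actin filaments, had log2FC values of -2.25 and -1.87, and OsFH1 had 5.58, 1.46 and 2.402 FPKM in ZH11-D, against 9.89, 22.1 and 15.4 FPKM in ZH11-N. TUD1, a U-box ubiquitin ligase of brassinosteroid signalling, had 8.26, 4.75 and 5.55 FPKM in ZH11-D, against 24.4, 41.4 and 42.9 FPKM in ZH11-N (log2FC -2.45, standard error 0.31, limma adjusted p = 0.000119). OsPUB44, another U-box protein, had a log2FC of -2.35. The 14-3-3 proteins OsGF14b and OsGF14e, adaptors that bind phosphorylated partners, had log2FC values of -1.32 and -1.54, and OsGF14e had 31.6, 30.4 and 30.3 FPKM in ZH11-D, against 68.2, 119 and 89.9 FPKM in ZH11-N. Each of these 6 genes was lower in every ZH11-D library than in any ZH11-N library.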
